A study of Mus musculus with 8 samples.

Results

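Activins, follistatins and activin receptors were examined as a set of 9 genes among the 47706 listed in a table of RNA sequencing counts from mouse calvarial osteoblasts. The members were the rows that carry the symbols Inhba, Inhbb, Fst, Fstl3, Fstl1, Acvr2a, Acvr2b, Acvr1b and Acvr1, and each symbol had 1 row. Primary osteoblasts, isolated by collagenase from the calvaria of newborn mice, were differentiated for 7 days and then given PTH or vehicle for 24 hours, with 4 cultures in each group and no other treatment that differed between them. The hormone was the PTH fragment also called teriparatide, given to these cultures at a micromolar dose by the study's methods. The study's oxygen consumption assays used a nanomolar dose. All 8 titles begin with "Con", a prefix the labels do not explain, and neither the genotype nor the strain of these cultures is given. The labels describe the differentiation as adipogenic, whereas the study's methods describe an osteogenic medium with ascorbic acid and β-glycerol phosphate and a period of serum starvation before the hormone. The labels do not say whether the samples of a group came from separate preparations of cells, so the p-values measure the spread between these samples, which may be technical.

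Activins are secreted dimers of the inhibin β subunits, a branch of the TGF-β family first known for driving the release of follicle-stimulating hormone. An activin binds a type II receptor (ACVR2A or ACVR2B), which then recruits and phosphorylates a type I receptor, chiefly ACVR1B (ALK4), and the type I receptor phosphorylates SMAD2 and SMAD3. ACVR1 (ALK2) shares the type II receptors but signals for BMPs through SMAD1 and SMAD5. Follistatin and FSTL3 enclose the ligand and keep it from its receptors. In bone, activins are stored in the matrix and made by osteoblast-lineage and marrow cells, and soluble forms of the type II receptors raise bone mass in animals.

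The 8 libraries held 33605610 to 56090654 counts. Tnfsf11, which encodes RANKL and was used to check the labels, had 0.987 to 1.79 CPM (the count scaled for library size) in the vehicle-treated samples and 115 to 157 CPM in the PTH-treated samples. Of 13 osteoblast markers, all passed the filter on low counts, and their median lay between 219 and 384 CPM in the 8 libraries. None of the 13 was higher with PTH and 3 were lower by edgeR, where 23.3% of all genes tested were higher and 22.5% lower. Those percentages also stand beside the other marker lists below. The lower ones were Sp7 (log2 fold change -1.78, adjusted p = 4.45e-06), Dmp1 (-1.12, adjusted p = 0.000806) and Runx2 (-0.33, adjusted p = 0.00362). The median of 9 adipocyte markers lay between 2.71 and 6.002 CPM, and of 8 tested, Pparg was lower (-1.50, adjusted p = 3.66e-07) and none was higher. Macrophage markers were present: their sum over 10 genes was 351 to 603 CPM with vehicle and 514 to 577 CPM with PTH, and 1 of the 10 (Cd14) was higher with PTH. The median log2 fold change of these 10 was 0.30, beside -0.00081 over all genes tested. The sum of 6 endothelial markers was 8.63 to 9.72 CPM with vehicle and 8.52 to 10.4 CPM with PTH, with 1 gene higher and 1 lower. The sum of 8 skeletal muscle markers was 5.89 to 7.24 CPM with vehicle and 9.68 to 11.9 CPM with PTH. In that list 2 of 3 tested genes (Pax7 and Myh3) were higher. Of the genes that define the lineage, Pax7 had 3.61 to 4.28 CPM with vehicle and 6.34 to 7.40 CPM with PTH, Myod1 had 0 to 0.125 and 0.143 to 0.361 CPM, Myog had at most 16 counts in a sample, and Myf5 had none. The part of these cell types in the values below was not tested. In bulk RNA, fewer cells of a type and less RNA per cell cannot be told apart.

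PTH raised the transcripts of both activin subunits, of follistatin and of the type I receptor Acvr1b, and lowered those of the type II receptor Acvr2a and of the type I receptor Acvr1. Fstl3 was also called lower, but its groups overlapped and the call was lost in 5 of 8 fits that left out 1 sample. By edgeR's quasi-likelihood test, adjusted over the 16736 genes tested, 4 of the 9 members were higher with PTH (44.4%, against 23.3% of all genes tested) and 3 were lower (33.3%, against 22.5%). In either direction, 7 of 9 differed (77.8%), where 45.8% of all genes tested did. All 9 members passed the filter on low counts. For 6 members the CPM values of the groups did not overlap, as was so for 43.0% of all genes tested. The median log2 fold change of the 9 members was -0.0065, beside -0.00081 over all genes tested, and the median of its absolute size was 0.53, beside 0.35.

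**Figure D1:**
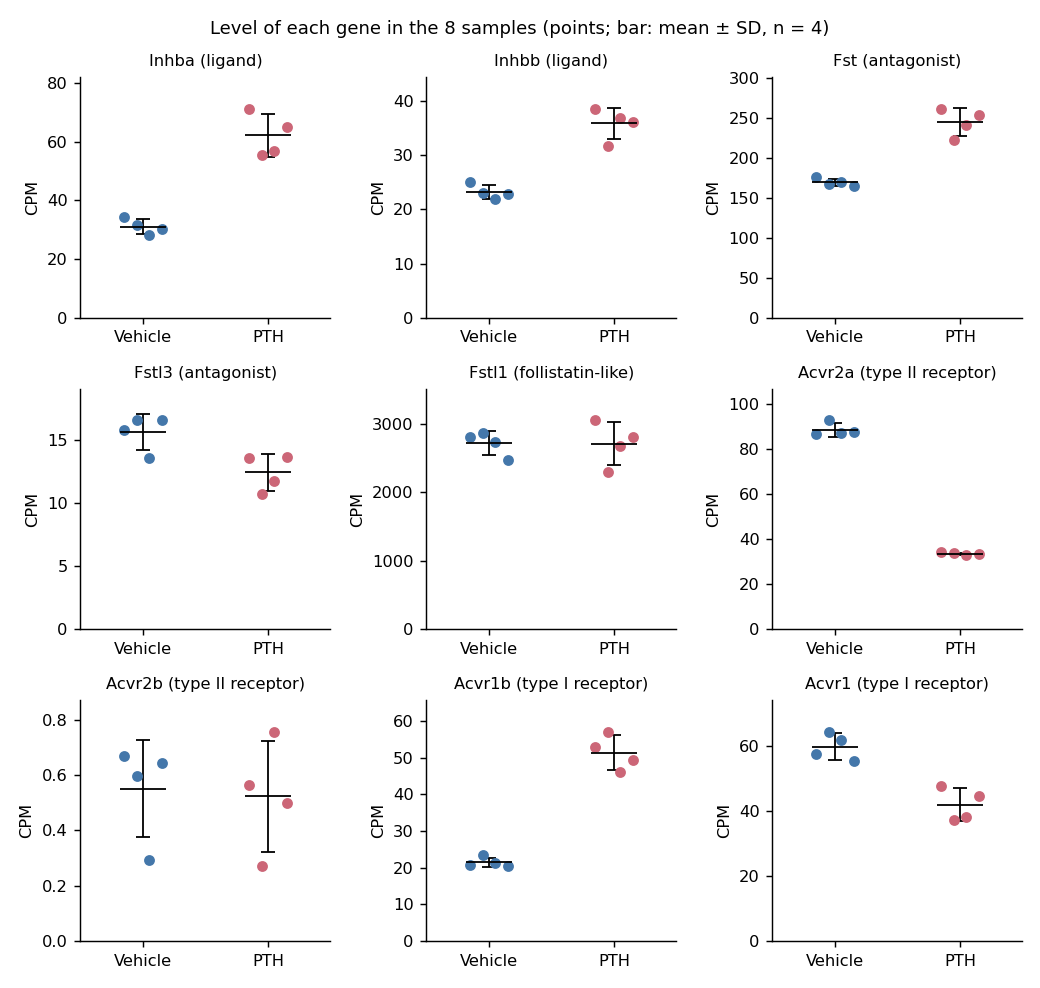
Level of each of the 9 genes in CPM (vertical axes from 0) in the vehicle-treated (blue) and PTH-treated (red) samples; points are samples and bars are the mean ± SD of 4. Inhba, Inhbb, Fst and Acvr1b lie higher in every PTH-treated sample, Acvr2a and Acvr1 lie lower, and the groups overlap for Fstl3, Fstl1 and Acvr2b.

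Inhba encodes the βA subunit of activin A and lies on chromosome 13 from 16011851 to 16031621 (GRCm38, GENCODE M21). It was at 34.2, 31.7, 28.2 and 30.1 CPM in vehicle replicates 1 to 4 and at 71.3, 55.4, 56.9 and 64.9 CPM in PTH replicates 1 to 4. The lowest PTH value exceeded the highest vehicle value. The mean rose from 31.1 ± 2.52 to 62.1 ± 7.40 CPM (SD, n = 4 each), which on the log2 scale is 1.0 (standard error 0.0929, edgeR adjusted p = 3.27e-06), or 2.0-fold with a 95% interval of 1.74 to 2.30. Inhbb encodes the βB subunit, on chromosome 1 from 119415465 to 119422248. Its level was 25.1, 22.96, 21.99 and 22.9 CPM in the vehicle-treated samples and 38.6, 31.7, 36.9 and 36.2 CPM in the PTH-treated samples. The groups did not overlap, and the log2 fold change was 0.63 (standard error 0.0793, edgeR adjusted p = 4.85e-05), or 1.54-fold with a 95% interval of 1.37 to 1.74.

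Fst encodes follistatin, which binds activins nearly irreversibly, and lies on chromosome 13 from 114452290 to 114458951. It stood at 175, 166, 170 and 164 CPM in the vehicle-treated samples and at 261, 222, 240 and 254 CPM in the PTH-treated samples. Follistatin was the steadiest of the rising members within the vehicle group, and its groups did not overlap. Its log2 fold change was 0.53 (standard error 0.0670, edgeR adjusted p = 4.56e-05), or 1.45-fold with a 95% interval of 1.31 to 1.60. The annotated antisense gene Gm47040 shares 115 exon bases with Fst, and the strand setting of the counts is not stated. Within the PTH group, the order of the 4 samples by total count was also their order by CPM for Inhba, Fst, Fstl1 and Acvr1, 4 of the 9 members. The share of all genes with this order was not counted. The percentage of counts in the few most abundant genes had the same order, from 15.8% in PTH replicate 1 to 12.1% in PTH replicate 2. The part of depth or of library composition in this order was not tested.

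Fstl3, the follistatin-like antagonist that also neutralizes activins and myostatin, lies on chromosome 10 from 79777272 to 79782630 and moved the other way. Its level was 15.8, 16.5, 13.5 and 16.5 CPM with vehicle and 13.6, 10.7, 11.7 and 13.7 CPM with PTH. Vehicle replicate 3 was below PTH replicates 1 and 4, so the groups overlapped. The log2 fold change was -0.33 (standard error 0.107, edgeR adjusted p = 0.0257), 1.25-fold lower with a 95% interval of 1.07 to 1.48, but the exact permutation test on log2(CPM + 0.1) gave a two-sided p of 0.0857. With each sample left out in turn, Fstl3 passed the edgeR threshold in 3 of 8 fits and its adjusted p ranged from 0.0154 to 0.0742. It failed without PTH replicate 2 (0.0742) or 3 (0.0736) and without vehicle replicate 1 (0.0567), 2 (0.0740) or 4 (0.0709). Fstl3 shares 1157 exon bases with Prss57 on the other strand, which had at most 13 counts in a sample.

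Fstl1 encodes a secreted glycoprotein that carries a follistatin domain and is known as a matrix and mesenchymal product. It lies on chromosome 16 from 37776873 to 37836514 and was by far the most abundant member. Its level was 2811, 2871, 2744 and 2468 CPM with vehicle and 3057, 2300, 2677 and 2812 CPM with PTH. PTH replicate 1 lay above the vehicle range and PTH replicate 2 below it, and the other PTH-treated samples lay inside. The log2 fold change was -0.0065 with a 95% interval of -0.22 to 0.21 (edgeR adjusted p = 0.964), so a change of more than about 1.17-fold in either direction lay outside the interval.

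The type II receptors differed in level and in response. Acvr2a, on chromosome 2 from 48814109 to 48903269, encodes the receptor that binds activins first. It was at 86.5, 92.8, 86.9 and 87.5 CPM in the vehicle-treated samples and at 34.2, 33.7, 33.0 and 33.4 CPM in the PTH-treated samples. The 4 PTH values lay within 1.19 CPM of each other, far below the lowest vehicle value. The mean fell from 88.4 ± 2.95 to 33.6 ± 0.502 CPM (SD, n = 4 each), with a log2 fold change of -1.40 (standard error 0.0576, edgeR adjusted p = 2.02e-09), or 2.64-fold lower with a 95% interval of 2.42 to 2.88. Of all genes tested, 1.77% had a lower log2 fold change. The end of Acvr2a shares 446 exon bases with Orc4 on the other strand. Orc4, an origin recognition gene, ranged from 25.5 to 28.9 CPM in the vehicle group and from 29.7 to 34.3 CPM in the PTH group, the opposite direction.

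Acvr2b, on chromosome 9 from 119402118 to 119434995, encodes the other activin type II receptor and was scarce. Its counts were 30, 26, 14 and 32 in the vehicle-treated samples and 29, 9, 29 and 21 in the PTH-treated samples. The groups overlapped almost fully, at 0.292 to 0.669 CPM with vehicle and 0.271 to 0.757 CPM with PTH. The log2 fold change was -0.065 with a 95% interval of -0.98 to 0.85 (edgeR adjusted p = 0.913). The rise seen in Inhba and the fall seen in Acvr2a lay outside this interval, and smaller changes within it were left undecided.

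The type I receptors moved in opposite directions. Acvr1b, on chromosome 15 from 101174067 to 101213684, encodes ALK4, the main type I receptor for activins. Its level was 20.7, 23.3, 21.2 and 20.4 CPM with vehicle and 53.0, 57.0, 46.0 and 49.4 CPM with PTH. All PTH-treated samples were above 46 CPM and all vehicle-treated samples below 24 CPM. The mean rose from 21.4 ± 1.31 to 51.4 ± 4.74 CPM (SD, n = 4 each), or 1.26 on the log2 scale (standard error 0.0819, edgeR adjusted p = 1.30e-07), or 2.40-fold with a 95% interval of 2.12 to 2.71. This was the largest rise among the 9 members, and 94.0% of all genes tested had a lower log2 fold change. The assembled locus of Acvr1b also holds the microRNA gene Mir6962, which had at most 1 count in a sample.

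Acvr1, on chromosome 2 from 58388644 to 58567157, encodes ALK2, a type I receptor known for BMP signaling and for activating mutations in fibrodysplasia ossificans progressiva. It was at 57.5, 64.4, 61.8 and 55.4 CPM in the vehicle-treated samples and at 47.7, 37.3, 38.1 and 44.5 CPM in the PTH-treated samples. The groups did not overlap. The log2 fold change was -0.51 (standard error 0.0895, edgeR adjusted p = 0.000599), or 1.42-fold lower with a 95% interval of 1.24 to 1.63. For Inhba, Inhbb, Fst, Acvr1b, Acvr2a and Acvr1, the exact permutation test on log2(CPM + 0.1) gave a two-sided p of 0.0286 each, the smallest that 4 samples against 4 allow.

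**Figure D2:**
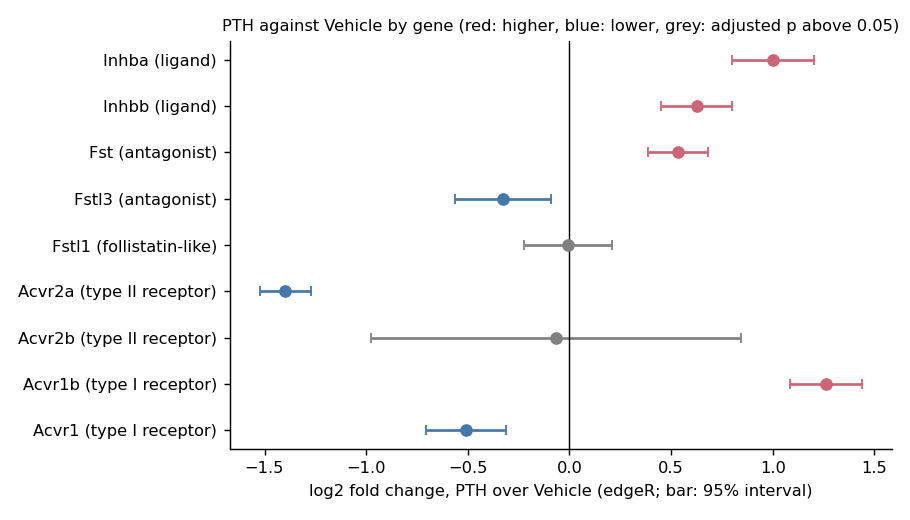
Log2 fold change of PTH over vehicle for each gene with its 95% interval from edgeR; red marks genes higher with PTH, blue genes lower with PTH and grey genes whose adjusted p was above 0.05. Acvr1b (1.26) and Inhba (1.0) have the largest rises and Acvr2a (-1.40) the largest fall, and the interval of Acvr2b is the widest.

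Stretches before the annotated starts of Inhba, Acvr1b and Acvr2a are shown because these had the largest changes among the ligands, type I receptors and type II receptors. The sequences are from RefSeq's GRCm38.p6 and read 5′ to 3′ on the + strand, which is the coding strand of all 3 genes. They cover chr13:16011601-16011850 for Inhba, chr15:101173822-101174066 for Acvr1b and chr2:48813859-48814108 for Acvr2a. Capitals mark matches to the motifs named in the next paragraph.
Inhba: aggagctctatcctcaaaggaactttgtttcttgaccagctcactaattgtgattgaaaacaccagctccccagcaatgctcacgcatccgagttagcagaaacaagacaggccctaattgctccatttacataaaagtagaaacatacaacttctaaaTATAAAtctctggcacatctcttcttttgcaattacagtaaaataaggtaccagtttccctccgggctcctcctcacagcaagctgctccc
Acvr1b: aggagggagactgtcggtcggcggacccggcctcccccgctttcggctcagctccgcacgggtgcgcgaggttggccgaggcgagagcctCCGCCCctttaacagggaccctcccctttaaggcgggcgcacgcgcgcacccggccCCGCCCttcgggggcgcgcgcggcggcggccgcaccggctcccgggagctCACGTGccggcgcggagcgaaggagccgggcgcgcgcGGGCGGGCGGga
Acvr2a: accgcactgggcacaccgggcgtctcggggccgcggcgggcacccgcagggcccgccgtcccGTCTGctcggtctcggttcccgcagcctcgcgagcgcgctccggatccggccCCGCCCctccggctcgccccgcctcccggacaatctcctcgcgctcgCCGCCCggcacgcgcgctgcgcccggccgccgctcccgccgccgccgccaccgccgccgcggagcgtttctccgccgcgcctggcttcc

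A window of 300 bases, from 250 before to 50 after the RefSeq start, was given for 8 of the 9 members, all but Fst. 9 motifs were searched on both strands in these windows and in the 32851 windows of all genes. The cAMP response element TGACGTCA, which binds CREB, was in none of the 8 windows (1.79% of all windows), and neither was its shorter core TGACG (20.8% of all windows), which is contained in the full element. The AP-1 site TGANTCA (7.81%), the RUNX site TGTGGT (16.8%) and the NR4A site AAAGGTCA (1.51%) were not in the 8 windows either. The Inhba window held a TATA box, TATAAA (13.6% of all windows), that began 91 bases before the start. That of Fstl3 was the other with this motif. The GC box GGGCGG was in 7 of the 8 windows (35.7% of all windows), and Inhba was the member without it. An E-box, CACGTG (7.15%), lay in the Acvr1b window and began 54 bases before the start. The SMAD element CAGAC was in 3 of 8 windows, those of Acvr2a, Acvr2b and Fstl3 (49.6% of all windows). GC content was 47.7% in the Inhba window, 64.3% to 83.7% in the other 7, and 52.67% at the median of all windows. The Acvr2a and Acvr1b windows were at 80.3% and 79.7%. Whether GC content goes with the direction of change was not tested. A match is a run of letters in these windows and says nothing of binding.

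Members of one role changed unequally, which was examined as the ratio of 2 genes within each sample. The plain ratio does not depend on the scaling between libraries. The log2 differences and their tests used CPM + 0.1, so for a scarce gene such as Acvr2b they do depend on it. The ratio of Acvr1 to Acvr1b was 2.78, 2.76, 2.91 and 2.71 in the vehicle-treated samples and 0.901, 0.654, 0.829 and 0.902 in the PTH-treated samples. The type I receptor with more counts was therefore Acvr1 in every vehicle-treated sample and Acvr1b in every PTH-treated sample, a difference of -1.77 on the log2 scale. The ratio of Acvr2a to Acvr2b was 129, 156, 297.5 and 136 with vehicle and 60.4, 124, 43.6 and 66.9 with PTH. These did not overlap, but PTH replicate 2 lay just below the lowest vehicle value, and the ratio rests on the 9 to 32 counts of Acvr2b per sample.

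Among the secreted proteins, the ratio of Inhba to Inhbb rose from 1.28 to 1.38 across the vehicle-treated samples to 1.54 to 1.85 across the PTH-treated samples. The ratio of Fst to Fstl3 was 9.93 to 12.6 with vehicle and 18.6 to 20.8 with PTH. Fst to Inhba, an antagonist against its ligand, moved from 5.13, 5.25, 6.01 and 5.46 to 3.67, 4.01, 4.23 and 3.91. Follistatin transcripts thus stayed the more numerous in all 8 samples, by a smaller factor with PTH. The mean differences in log2 ratio were 0.37 for Inhba to Inhbb, 0.86 for Fst to Fstl3, -1.32 for Acvr2a to Acvr2b and -0.46 for Fst to Inhba. None of the 5 ratios overlapped between groups. Each had a two-sided exact permutation p of 0.0286, the smallest possible, and 0.0286 after Benjamini-Hochberg adjustment over the 5 pairs. For Acvr1 to Acvr1b this followed from the single genes, which moved apart without overlap. The ratios use the same counts as the single genes and are not separate support for their changes. Among single genes, 43.0% of all tested did not overlap between groups.

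**Figure D3:**
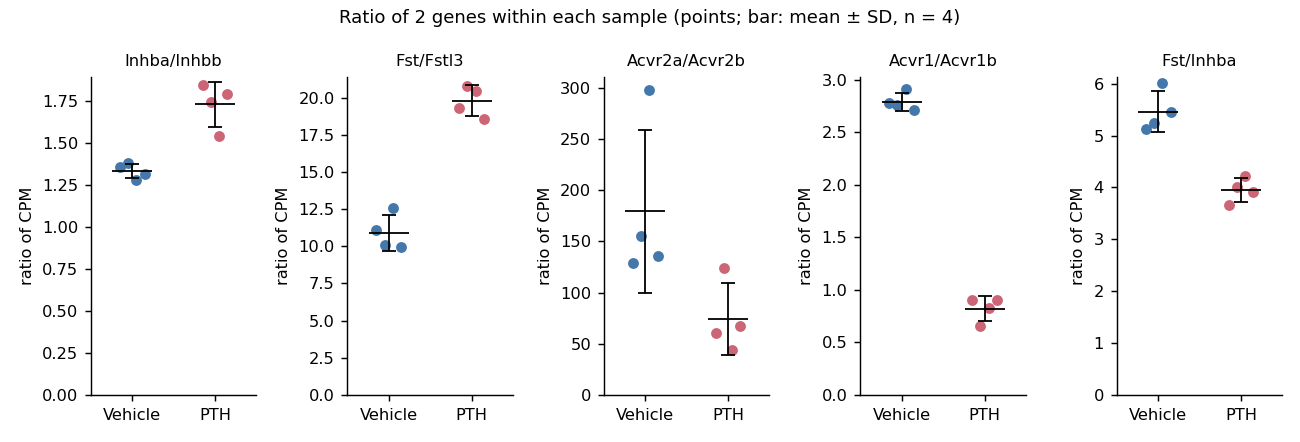
Ratio of the CPM of 2 genes within each sample for the 5 pairs (vertical axes from 0); points are samples, blue for vehicle and red for PTH, and bars are the mean ± SD of 4. The ratio of Acvr1 to Acvr1b falls from above 2.7 to below 1, Inhba to Inhbb and Fst to Fstl3 rise, and vehicle replicate 3 stands apart in Acvr2a to Acvr2b.

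Levels of different genes were compared per length, as CPM per kilobase of the union of annotated exons. With vehicle the order was Fstl1 at 554 ± 36.2, Fst at 36.8 ± 1.04, Acvr2a at 15.6 ± 0.520, Acvr1 at 12.4 ± 0.845, Fstl3 at 6.38 ± 0.585, Inhbb at 5.46 ± 0.312, Inhba at 4.86 ± 0.394, Acvr1b at 4.85 ± 0.296 and Acvr2b at 0.140 ± 0.0446 CPM per kilobase (SD, n = 4). From Fstl3 down to Acvr1b, each neighbor overlapped the next in its range over samples. With PTH, Fstl1 (552 ± 64.3) and Fst (53.3 ± 3.75) still led, followed by Acvr1b at 11.6 ± 1.07, Inhba at 9.72 ± 1.16, Acvr1 at 8.68 ± 1.04, Inhbb at 8.42 ± 0.691, Acvr2a at 5.90 ± 0.0883, Fstl3 at 5.08 ± 0.594 and Acvr2b at 0.133 ± 0.0511 CPM per kilobase. Acvr1b, Inhba, Acvr1 and Inhbb each overlapped the next in this order, whereas Acvr2a lay below Inhbb and above Fstl3 without overlap. By this length, Acvr2a was in place 3 of 9 with vehicle and 7 with PTH, and Acvr1b in place 8 and 3.

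Summed per kilobase, the type II receptor transcripts fell from 15.7 ± 0.530 to 6.03 ± 0.0781 CPM per kilobase, and Acvr2a made up 99.1% ± 0.283 of that sum with vehicle and 97.8% ± 0.849 with PTH. The sum of Acvr1b and Acvr1 was 17.2 ± 1.12 with vehicle and 20.3 ± 1.48 with PTH, in which the share of Acvr1b was 28.2% ± 0.615 and 57.3% ± 3.67. The activin subunits summed to 10.3 ± 0.697 and 18.1 ± 1.73 CPM per kilobase, with a share of Inhba of 47.1% ± 0.821 and 53.5% ± 1.98. These sums are descriptions without a test. Measured by the longest transcript in place of the union of exons, Acvr1 was at 18.1 CPM per kilobase with vehicle, above Acvr2a, and at 12.7 with PTH, above Acvr1b. Fstl3 was then at 6.35 with PTH, above Acvr2a at 5.90. The places of Acvr2a and Acvr1 in both groups, and of Acvr1b, Inhba and Fstl3 with PTH, therefore depend on the length used.

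**Figure D4:**
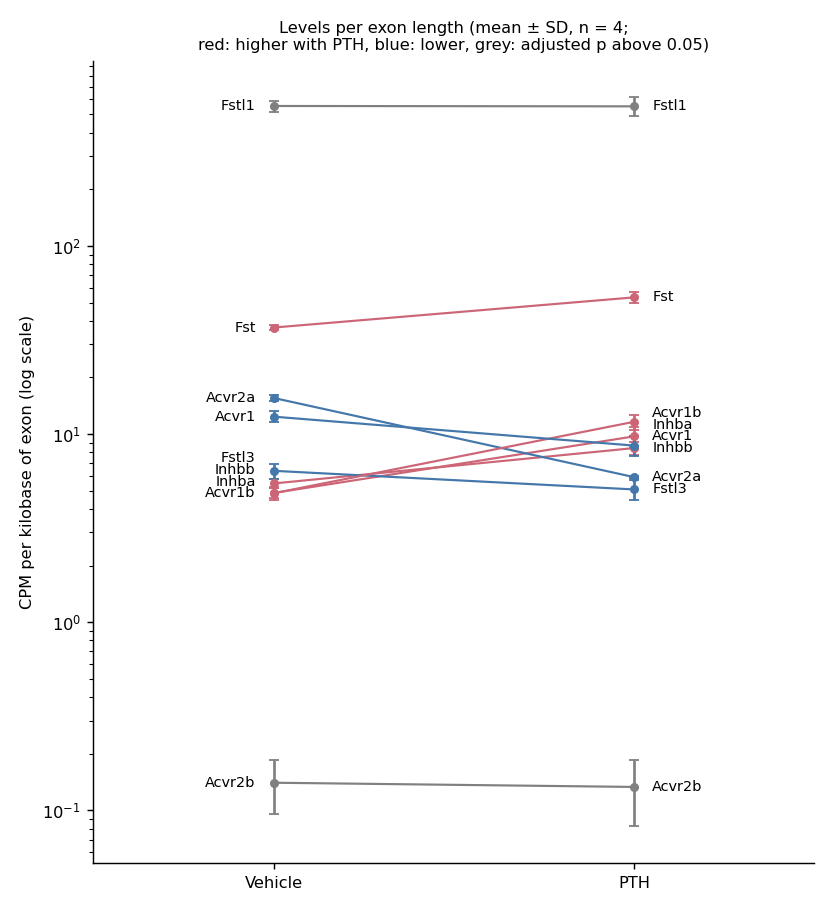
Mean level of each gene per kilobase of exon (log scale; bars are the SD of 4 samples) with vehicle and with PTH; lines join the same gene, red for genes higher with PTH, blue for lower and grey for an adjusted p above 0.05. Acvr2a crosses below both activin subunits and Acvr1b crosses above Acvr1, between Fstl1 at 552 or more and Acvr2b below 0.2. By the longest transcript, Acvr1b with PTH (11.6) stays below Acvr1 (12.7).

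The other genes of the pathway were taken from a list of 39, of which 28 had enough counts to be tested, 8 were higher with PTH and 7 were lower (edgeR), beside 23.3% and 22.5% of all genes tested. The number higher was 5 without vehicle replicate 2 and 5 without the filter on low counts. The number lower was 5 with DESeq2, 5 without the filter and 5 to 7 with 1 sample left out. Their median log2 fold change was 0.093, beside -0.00081 over all genes tested. Among 8 other ligand genes, 3 were tested and Gdf11, which encodes a myostatin-like ligand of the same type II receptors, was higher (log2 fold change 0.74, adjusted p = 0.000802). Inha, whose product pairs with β subunits to form inhibins, was at 1.77 to 2.65 CPM with vehicle and at 1.13, 4.75, 1.72 and 2.02 CPM with PTH, ranges that overlapped (log2 fold change 0.10, 95% interval -0.71 to 0.92, adjusted p = 0.847), and Inhbc and Inhbe had no count. Of 6 tested antagonist genes 1 was higher and 1 lower. Bambi, a decoy receptor, changed by a log2 fold of 0.42 (adjusted p = 0.0213). Dand5, which encodes a secreted antagonist of nodal, changed by -0.9998 on that scale (adjusted p = 0.00299).

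Of 5 tested genes for other receptors and co-receptors, 2 were higher and 1 was lower. The values over all genes tested, for this list and the convertase genes below, were 23.3% higher and 22.5% lower. Acvr1c, which encodes ALK7, was at 0.303 ± 0.0728 CPM with vehicle and 0.813 ± 0.0919 CPM with PTH (1.42 on the log2 scale, adjusted p = 0.00567) on at most 37 counts in a sample. Acvrl1, which encodes ALK1, had a log2 fold change of -0.52 (adjusted p = 0.000242). Activin precursors are cut by furin-type convertases, and of 4 such genes Pcsk5 (log2 fold change 0.25, adjusted p = 0.0218) and Pcsk7 (0.24, adjusted p = 0.0282) were higher and none was lower.

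Downstream of the receptors, 2 of 10 tested intracellular genes were higher and 5 were lower, with a median log2 fold change of -0.14. For this list and the target lists that follow, the values over all genes tested were 23.3% higher, 22.5% lower and a median of -0.00081. Smad3 stood at 99.5 ± 2.60 CPM in the vehicle group and at 376 ± 57.6 CPM in the PTH group (1.92 on the log2 scale, adjusted p = 1.81e-08), while Smad2, the other effector of activin receptors, had 40.8 ± 3.57 and 31.0 ± 2.48 CPM (-0.40 on the log2 scale, adjusted p = 0.00226). Of 10 genes listed as targets of SMAD2 and SMAD3, 7 were higher and 2 were lower, with a median log2 fold change of 0.60. Ccn2, which encodes a matricellular protein and is listed under its older symbol Ctgf, had the largest fall (-1.80, adjusted p = 1.64e-08). Many of these targets also respond to TGF-β and to other pathways. Of 7 genes listed as targets of SMAD1 and SMAD5, 4 were higher and 2 lower, with a median of 0.24, from Id1 at -1.37 (adjusted p = 2.74e-06) to Hey1 at 1.30 (adjusted p = 7.16e-05).

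**Figure D5:**
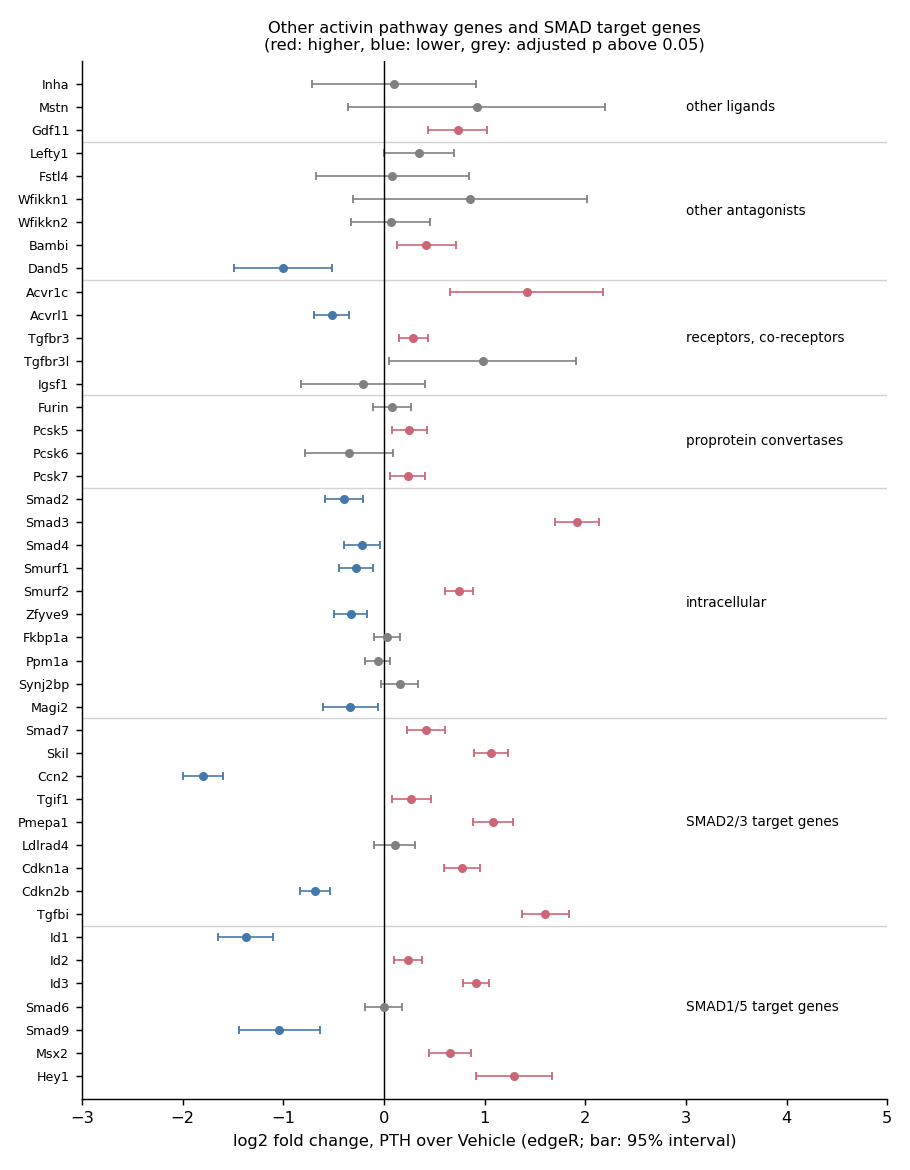
Log2 fold change of PTH over vehicle, with the 95% interval from edgeR, for tested genes of the other activin pathway lists and the SMAD target lists, grouped by list (1 SMAD2/3 target is not shown); red is higher with PTH, blue lower and grey an adjusted p above 0.05. Smad3 (1.92) has the largest rise, and Ccn2 (-1.80) the largest fall.

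The genes whose pattern was most like that of Acvr1b and of Acvr2a were sought among the 14070 genes that averaged 1 CPM or more, by the root mean square difference of the log2(CPM + 0.1) values of the 8 samples, each taken relative to the gene's own vehicle mean. For Acvr1b these were Rbm22, which encodes a splicing factor (0.0788), Atp10a, which encodes a phospholipid flippase (0.0789), and Zmiz1, which encodes a transcriptional coregulator (0.0857). For Acvr2a they were Sertad2 (0.0655), Paqr7, which encodes a membrane progestin receptor (0.0701), and Smtn, which encodes smoothelin of contractile cells (0.0826). Their log2 fold changes were 1.30, 1.23 and 1.24 for the genes nearest to Acvr1b and -1.38, -1.38 and -1.35 for those nearest to Acvr2a. These likenesses are descriptions over 8 samples that share the treatment contrast.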

How the data were processed

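RNA sequencing was analysed in 4 PTH-treated and 4 vehicle-treated samples, grouped by their titles. The authors prepared poly(A) libraries, used HISAT2 to align 150-base read pairs to GRCm38 and StringTie2 to assemble transcripts, and deposited whole-number counts per gene, made from transcript coverage by StringTie2's companion script and not normalized. The read length given to that script, its strand setting and the annotation release are not given in the sources used here. Total counts were 33605610 to 56090654 per sample, so that genes with few counts, such as Acvr2b, are imprecise. Of 47706 genes listed, 16736 passed edgeR's filterByExpr (minimum count 10, minimum total 15).

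The groups were contrasted in edgeR 4.0.16 (TMM, quasi-likelihood F-test, two-sided) in R 4.3.3, with Benjamini-Hochberg adjustment over all genes tested, a threshold of 0.05 and no minimum fold change, which follows the study's threshold. Standard errors are the log2 fold change divided by the square root of F. Adjusted p-values in the report are edgeR's unless another test is named. CPM use TMM-scaled library sizes. Single genes and ratios within samples were compared by exact permutation tests (70 assignments, smallest two-sided p 0.0286) in SciPy 1.17.1, with a pseudocount of 0.1. Positions and lengths are from GENCODE M21 and promoter windows from RefSeq. The fits were tested on simulated data.

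The members and lists were chosen with earlier results of these data known. The genes named were all 9 members, for each other list the genes with the largest and smallest change among those that passed, the 3 genes most like the members with the largest rise and fall, and Tnfsf11. Of these, 1 gene of the SMAD2/3 target list is counted with its list but not reported here. Inha, Cd14, Sp7, Dmp1, Runx2, Pparg, Pax7, Myh3, Myod1, Myog, Myf5 and genes overlapping members were named after their values were seen. Alternatives were DESeq2 1.42.0, its size factors used within edgeR, omission of the filter, the replicate number as a block, counts summed by symbol, counts halved (for a read length of 150 in place of 75 bases), an offset for exon length, a pseudocount of 1, the longest transcript as length, and leaving out each sample in turn. Plots were drawn with matplotlib 3.10.9.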

Additional observations from a re-analysis of the deposited data

Results flagged for a closer look

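In 28 groups of 4 samples (the CPM of the 9 members and the 5 ratios), 2 held a sample that stood apart from the other 3 by more than 0.829 of the group's range. Chance alone gives about 1 in 20 such groups. Acvr2a was at 92.8 CPM in vehicle replicate 2 and at 86.5 to 87.5 CPM in the other vehicle-treated samples. The ratio of Acvr2a to Acvr2b was 297.5 in vehicle replicate 3 and 129 to 156 in the other vehicle-treated samples, and Acvr2b had 14 counts in that sample.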

How the results depend on the processing

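Under the 7 alternatives that kept all samples, Inhba, Inhbb, Fst and Acvr1b stayed higher with PTH and Acvr2a, Acvr1 and Fstl3 stayed lower past the threshold, with DESeq2 included. With each of the 8 samples left out, 4 members were higher in every fit and 2 to 3 were lower, since Fstl3 lost its call in 5 of 8 fits. The log2 fold change lay between 0.93 and 1.06 for Inhba, 0.59 and 0.69 for Inhbb, 0.50 and 0.59 for Fst, 1.22 and 1.31 for Acvr1b, -1.41 and -1.38 for Acvr2a, and -0.58 and -0.45 for Acvr1 over these fits. Fstl1 and Acvr2b were not called in any fit, and their signs were not stable. Fstl1 had 0.0041 with DESeq2's size factors, 0.0034 with counts halved and 0.058 with the exon length offset, and -0.071 to 0.075 with 1 sample left out. Acvr2b ranged from -0.29 to 0.15 with 1 sample left out. Of the other pathway genes, 5 were higher without the filter on low counts and 5 to 8 with 1 sample left out (5 without vehicle replicate 2). Those lower numbered 5 with DESeq2, 5 without the filter and 5 to 7 with 1 sample left out, against 7 in the main fit. The cause was not tested. By the longest transcript, levels with vehicle and PTH were 57.9 and 83.7 CPM per kilobase for Fst, 7.98 and 6.35 for Fstl3, 719 and 716 for Fstl1 and 18.1 and 12.7 for Acvr1, since that transcript is shorter than the union of exons. The log2 ratios kept their signs with a pseudocount of 1 and with each sample left out, in which case 4 samples against 3 cannot reach a two-sided p of 0.05.

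The samples share only a replicate number: the deviations of same-numbered samples from their group means correlated at -0.041 to 0.027, and 0 of 4 PTH-treated samples correlated best with its own number. With the replicate number as a block, 3571 genes were higher and 3432 lower, 4 and 3 of the members, and 7 and 5 of the other pathway genes.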
